A study of Mus musculus with 18 samples.

Results

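The genes described are those of the mitochondrial ribosomal proteins, taken from an array study of mouse CD4+ T cells with and without the nuclear receptor ERRα. A gene belongs to the set where the annotation of a probe set names it alone and its symbol begins with Mrpl or Mrps followed by a digit. This gave 74 of the 12393 genes on the array, 47 with Mrpl symbols (large subunit) and 27 with Mrps symbols (small subunit). Where a gene had several probe sets, the brightest on average over all 18 arrays stands for it. No expression difference was used to choose the members.

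The mitochondrial ribosome is assembled in the matrix from ribosomal RNA encoded by the mitochondrial genome and from proteins encoded in the nucleus, made in the cytosol and imported. It translates the few proteins that mitochondrial DNA encodes, all of them core subunits of respiratory chain complexes and of ATP synthase, and it works at the inner membrane, where its products are inserted. Some of its proteins have bacterial homologues, others were gained by mitochondria. In T cells, activation through the antigen receptor is followed by growth and by an increase in mitochondrial mass and respiration, and ERRα, encoded by Esrra, is a transcription factor of mitochondrial energy metabolism genes.

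CD4+ T cells were isolated by negative magnetic selection, at a purity of over 95% by the labels, from mice 6 to 8 weeks old. The study has 6 groups of 3 arrays, described by the submitters as independent biological replicates. Wild-type cells received 20 µM XCT790, an inverse agonist of ERRα, or 20 µM compound A, a second ERRα inhibitor known here only by that name. ERRα-/- (knockout) and wild-type cells were stimulated for 12 h with 10 µg of antibodies to CD3 and CD28, or harvested ex vivo as resting cells. The labels give these mice as ERRα-/- and name no deletion limited to a cell type. For the 6 inhibitor arrays the labels conflict: their stimulation field reads as unstimulated, while the treatment protocol adds the inhibitors during the 12 h of stimulation. Both inhibitors are therefore set against stimulated cells, and their values against resting cells are given as well. The labels name no vehicle for the stimulated cells without inhibitor. Stimulated and resting cells also differ by the 12 h of culture, and stimulation and culture cannot be told apart.

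The values are log2 signals, summarised by the authors with GCRMA and identical in distribution on all arrays, so that every difference is relative to the other genes of the same array. A change in the total RNA of a cell would not be seen. Differences were tested with limma over the 6873 genes that reached log2 4 on at least 3 arrays, and a gene passed at a Benjamini-Hochberg adjusted p under 0.05. All 74 members entered the test. Their group means lay between 6.39 and 12.07, and the lowest member value on any array was 5.97, so none was near the floor. In bulk RNA, fewer cells of a type and less RNA per cell cannot be told apart.

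Some properties of the arrays bear on the comparisons. The 5' probe set of the dap control RNA read 7.45 to 8.51 on the 12 knockout and inhibitor arrays, against 3.99 to 6.38 on the 6 untreated wild-type arrays. Genotype or inhibitor and this array property cannot be told apart wherever those arrays are compared with untreated wild-type ones. The 3' probe set of dap read 10.57 to 10.88 in stimulated wild-type and 10.68 to 10.99 in stimulated knockout cells. With compound A it read 10.80 to 10.98, and with XCT790 11.02 to 11.47. In resting cells it read 11.36 to 11.89 (wild type) and 11.50 to 11.67 (knockout). The 3' minus 5' difference of the β-actin control, a sign of RNA integrity, was 0.69 to 0.80 on XCT790 arrays, against 0.41 to 0.58 on all others. That of the Gapdh control was -0.02 to 0.04 on XCT790 arrays, within the range of all others, -0.11 to 0.08. Esrra itself read 4.30 to 4.71 in stimulated knockout cells, against 5.28 to 5.47 in stimulated wild-type cells, and 4.34 to 4.65 in resting knockout cells, against 5.25 to 5.51 in resting wild-type cells. Where its probe set lies relative to the deletion is not given in the labels. The 9 tested T cell markers were above log2 4 in every group. Markers of 5 erythroid genes averaged 9.13 in resting knockout cells, against 5.0 in resting wild-type cells, and were all under log2 4 after culture. Neutrophil markers averaged 10.22, 7.77 and 7.63 in resting knockout cells, against 6.45, 4.72 and 4.36 in resting wild-type cells, and array 1 of the stimulated knockout cells kept a mean of 6.09, against 2.83 and 3.09 on arrays 2 and 3. For each comparison with stimulated knockout cells the counts or the medians of the members are also given without this array.

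Averaged over the 74 genes, the stimulated wild-type cells had the highest level and the XCT790 and resting cells the lowest. The array means were 9.33, 9.54 and 9.42 with XCT790, 10.04, 10.01 and 10.00 with compound A, 10.14, 10.30 and 10.29 in stimulated knockout cells, and 10.39, 10.36 and 10.34 in stimulated wild-type cells. Resting knockout arrays had 9.5, 9.46 and 9.42, and resting wild-type arrays 9.39, 9.46 and 9.47. The XCT790 arrays thus spread around the resting ones, and the compound A arrays stood between them and the stimulated wild-type arrays.

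In both subunits the stimulated wild-type arrays were highest, followed by the stimulated knockout and the compound A arrays. The XCT790 arrays overlapped the resting arrays in both. The large subunit genes averaged 9.45 ± 0.118 with XCT790, 10.06 ± 0.023 with compound A, 10.28 ± 0.082 in stimulated knockout cells, 10.39 ± 0.015 in stimulated wild-type cells, 9.55 ± 0.046 in resting knockout cells and 9.51 ± 0.042 in resting wild-type cells (SD, n = 3 arrays each). The small subunit genes averaged 9.40 ± 0.088, 9.94 ± 0.028, 10.17 ± 0.103, 10.32 ± 0.034, 9.31 ± 0.027 and 9.32 ± 0.041 in the same 6 groups (SD, n = 3 arrays each). In neither subunit did the arrays of stimulated knockout cells overlap those of stimulated wild-type cells, while the resting knockout and resting wild-type arrays overlapped in both. For comparison, the mean of the cytosolic ribosomal protein genes stayed between 13.34 and 13.50 on all arrays, near the top of the scale, which ends at 15.4.

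**Figure D1:**
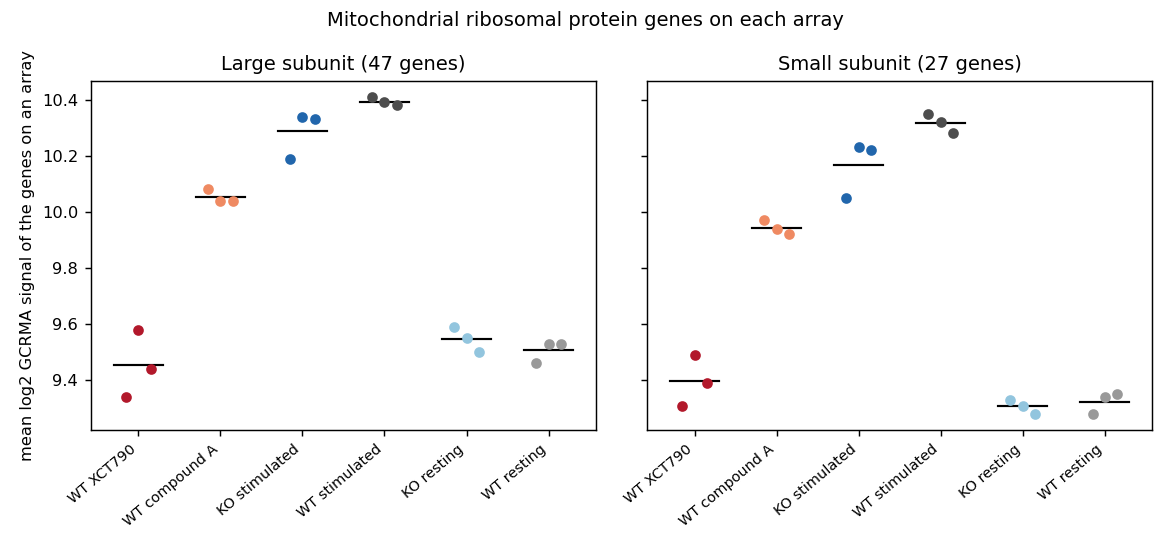
Mean log2 signal of the 47 large subunit genes and the 27 small subunit genes (vertical axis) on each of the 18 arrays, by group; points are arrays and the line is the mean of 3. Stimulated wild-type arrays are highest, at 10.39 (large) and 10.32 (small) on average, and XCT790 arrays lie at 9.45 and 9.40, near the resting arrays.

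The first comparison set stimulated against resting wild-type cells. Of the 74 members 66 were higher in stimulated cells and 2 lower, by limma's adjusted p under 0.05. Of all genes tested, 37.0% rose and 38.4% fell, so the members' share of 89.2% higher stands against that background. The rise passed for 41 of 47 large subunit genes and 25 of 27 small subunit genes. The median difference was 0.98 on the log2 scale for the large subunit (1.97-fold) and 0.96 for the small (1.95-fold), beside -0.01 over all genes tested. In 66 members all 3 stimulated arrays lay above all 3 resting arrays, as did 41.3% of all genes tested. Markers of other cells fell in the same comparison. The 7 macrophage markers averaged 2.45 in stimulated cells, where all lay under log2 4 on every array, against 8.71 in resting cells, and the 5 B cell markers averaged 5.67, against 8.92, with every gene of both lists called lower. Of the other markers 6 of 9 T cell, 3 of 5 erythroid and 3 of 7 neutrophil genes were lower. Their part in the result was not tested.

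Mrps6, a small subunit protein with a bacterial homologue, rose most. It had 10.34, 10.25 and 10.18 in stimulated wild-type cells, against 7.56, 7.66 and 7.70 in resting ones, a log2 difference of 2.62 ± 0.13 (SE) or 6.15-fold (limma adjusted p = 2.92e-10). Every stimulated array was more than 2 log2 units above every resting one. Mrps18b, 1 of the 3 mammalian paralogues of a single bacterial protein, had 10.12, 10.09 and 10.09 in stimulated cells, against 8.26, 8.12 and 8.26 in resting cells, 3.69-fold higher after stimulation (limma adjusted p = 2.98e-10). Mrps22, a mitochondrion-specific protein whose human counterpart is mutated in a respiratory chain deficiency, had 10.46, 10.47 and 10.41 against 8.56, 8.61 and 8.68, 3.56-fold higher in stimulated cells. Mrps25, another mitochondrion-specific small subunit protein, was 3.55-fold higher in stimulated cells.

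In the large subunit, Mrpl1, whose bacterial homologue forms the stalk beside the exit site for tRNA, had 8.32, 8.32 and 8.53 in stimulated wild-type cells, against 6.25, 6.64 and 6.29 in resting cells, 3.99-fold higher (limma adjusted p = 6.9e-08). Mrpl47, a homologue of a bacterial protein at the mouth of the exit tunnel, was 3.55-fold higher in stimulated cells. Mrpl12, the stalk protein that also binds the mitochondrial RNA polymerase, had 11.87, 11.86 and 11.79 in stimulated cells, against 10.32, 10.37 and 10.32 in resting cells, with a difference of 1.5 ± 0.07 (SE, limma adjusted p = 8.51e-11). The 3 arrays of each group lay close together and the groups far apart. Mrpl3, near the peptidyl transferase centre and mutated in a human respiratory chain deficiency, was 2.26-fold higher after stimulation.

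The small subunit's decoding centre protein Mrps12 had 10.31, 10.30 and 10.44 in stimulated wild-type cells, against 9.33, 9.41 and 9.35 in resting cells, 1.98-fold higher (limma adjusted p = 7.76e-09). The 3 paralogues Mrps18a, Mrps18b and Mrps18c take different places in the ribosome, and Mrps18a sits in the large subunit in structures of the mammalian particle. All 3 rose, by 1.21, 1.88 and 0.74 on the log2 scale in that order. Mrps30, which is also found in the large subunit in structures, was 1.96-fold higher. Mrps36, now known as a subunit of the alpha-ketoglutarate dehydrogenase complex rather than a ribosomal protein, was 2.7-fold higher in stimulated cells. Placing Mrps18a and Mrps30 in the large subunit and leaving out Mrps36 moved the median of the small subunit to 0.73.

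The 2 members that fell were both of the large subunit, and both calls rest on small differences. Mrpl49, a mitochondrion-specific protein, had 8.50, 8.25 and 8.36 in stimulated wild-type cells, against 8.65, 8.85 and 8.73 in resting cells, a difference of -0.38 ± 0.13 (SE, limma adjusted p = 0.0177). A second probe set of Mrpl49 went the other way, with a difference of 1.02, so its direction depends on the probe set, and the mean of its probe sets was 0.32. Mrpl24, the homologue of a bacterial assembly-initiating protein near the exit tunnel, had 11.54, 11.47 and 11.45 in stimulated cells, against 11.65, 11.78 and 11.77 in resting cells, 1.18-fold lower (limma adjusted p = 0.0222). The call of Mrpl49 was lost without array 2 of the resting or array 2 of the stimulated cells, and that of Mrpl24 without array 2 or 3 of either group. The 6 members that did not pass, named after their values were seen, were Mrpl9, Mrpl33, Mrpl57, Mrpl58, Mrps16 and Mrps26, with log2 differences from -0.17 to 0.14. Among the 44 members listed as counterparts of bacterial proteins 40 rose and 1 fell, with a median of 1.0, and among the other 30, which include Mrps18a, Mrps18b and Mrps36, 26 rose and 1 fell, with a median of 0.92.

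Other genes of mitochondrial translation were read from lists chosen for this purpose, beside 37.0% of all genes tested higher and 38.4% lower. Of 4 ribosomal proteins with other symbols, Chchd1, Gadd45gip1 and Ptcd3 rose, by 0.76, 1.51 and 0.99 on the log2 scale, and Dap3 had a difference of 0.05. Of 10 genes listed as mitochondrial translation factors, RNA-binding proteins and accessory proteins such as Oxa1l, 8 rose and 0 fell, with a median of 1.27. They included the elongation factors Gfm1 (1.66) and Tufm (1.05), the ribosome recycling factor Mrrf (1.51) and the mRNA-stabilising pair Lrpprc (1.5) and Slirp (1.51). Of 20 genes listed for mitochondrial ribosome assembly, a list that also holds the nucleolar helicase gene Ddx18, 12 rose and 3 fell. Of 12 genes that charge mitochondrial tRNAs, which are synthetases and the amidotransferase subunits Qrsl1, Gatb and Gatc, 7 rose and 2 fell. Cytosolic ribosomal proteins, in a list that also holds a few paralogues, had 11 of 46 genes higher and 6 lower, with a median of 0.00, and their high signals leave less room on the scale. Nuclear-encoded subunits of oxidative phosphorylation, the machinery that mitochondrial translation completes, had 50 of 73 higher and 10 lower, with a median of 0.32. Whether the members differed from any of these lists was not tested.

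**Figure D2:**
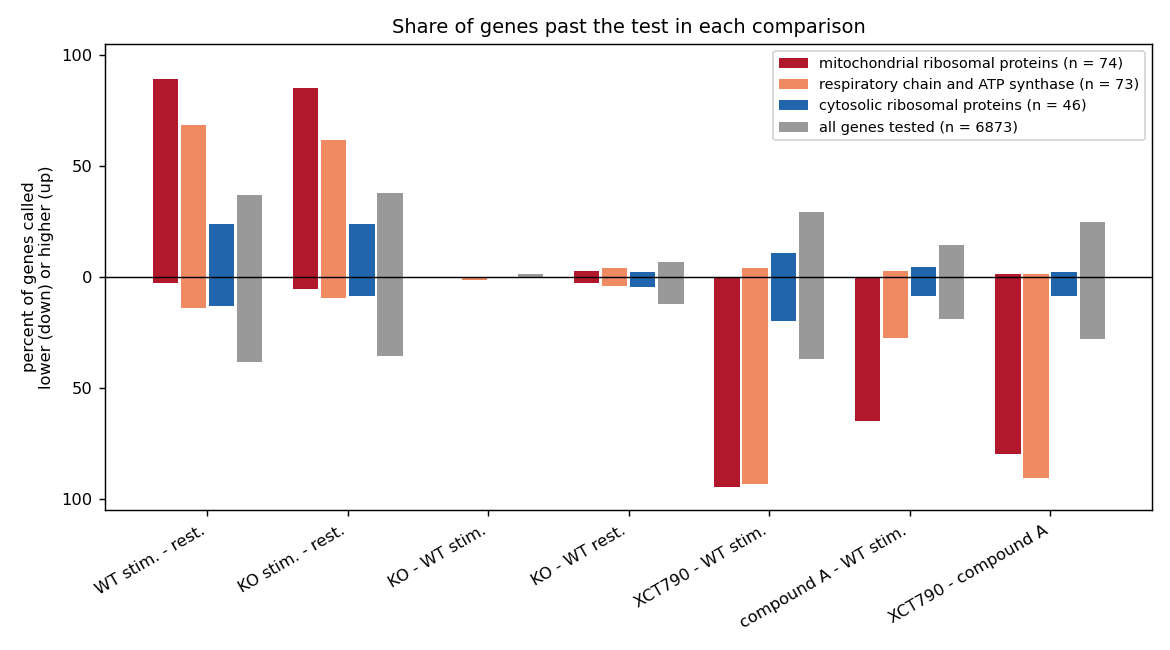
Percent of genes higher or lower at a limma adjusted p under 0.05 (vertical axis, higher drawn upward and lower downward) in 7 comparisons (horizontal axis), for the 74 mitochondrial ribosomal protein genes, 73 oxidative phosphorylation genes, 46 cytosolic ribosomal protein genes and all 6873 genes tested. In stimulated against resting wild-type cells 89.2% of the members were higher, against 37.0% of all genes, and with XCT790 against stimulated cells 94.6% were lower, against 36.9% of all genes.

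The upstream sequences of 65 members were available from RefSeq (build GRCm38.p6), and a script searched 250 bases before to 50 bases after each start, on both strands, for 6 motifs. The promoters of Mrps6, Mrps22 and Mrps18c are printed because they belong to members described above and hold different motifs, and those of Mrpl32 and Mrpl39 because they hold the NRF1 motif and belong to the 4 members that did not pass as lower with XCT790, as given further on. The last 2 were chosen after their values were seen. The other 2 of those 4, Mrpl14 and Mrpl23, hold no NRF1 match, and have 3 and 1 Sp1 matches. Each line gives the 250 bases before the start, 5′ to 3′ on the gene's strand, with the matched motif in capitals. The regions are chr16:92058086-92058335, plus strand (Mrps6), chr9:98601680-98601929, minus strand (Mrps22), chr5:100798509-100798758, plus strand (Mrps18c), chr13:14613038-14613287, minus strand (Mrpl32) and chr16:84735245-84735494, minus strand (Mrpl39).
Mrps6: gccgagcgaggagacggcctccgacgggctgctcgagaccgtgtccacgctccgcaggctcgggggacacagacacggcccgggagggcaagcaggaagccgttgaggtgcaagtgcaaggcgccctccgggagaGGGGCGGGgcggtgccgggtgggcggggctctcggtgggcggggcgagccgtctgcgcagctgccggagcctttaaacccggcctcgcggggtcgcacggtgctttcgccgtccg
Mrps22: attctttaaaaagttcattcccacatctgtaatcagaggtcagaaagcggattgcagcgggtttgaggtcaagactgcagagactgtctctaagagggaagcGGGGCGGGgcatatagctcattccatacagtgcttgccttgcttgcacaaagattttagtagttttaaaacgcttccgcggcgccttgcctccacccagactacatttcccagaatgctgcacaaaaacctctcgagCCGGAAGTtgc
Mrps18c: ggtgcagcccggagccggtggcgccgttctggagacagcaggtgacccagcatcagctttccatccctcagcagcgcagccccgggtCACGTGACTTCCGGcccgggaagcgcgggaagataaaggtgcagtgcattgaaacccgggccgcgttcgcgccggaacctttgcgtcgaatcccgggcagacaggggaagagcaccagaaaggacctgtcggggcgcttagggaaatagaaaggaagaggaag
Mrpl32: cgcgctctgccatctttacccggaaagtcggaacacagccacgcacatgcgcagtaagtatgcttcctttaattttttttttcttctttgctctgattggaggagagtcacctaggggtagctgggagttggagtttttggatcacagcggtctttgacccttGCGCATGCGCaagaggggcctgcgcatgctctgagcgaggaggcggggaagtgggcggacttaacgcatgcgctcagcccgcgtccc
Mrpl39: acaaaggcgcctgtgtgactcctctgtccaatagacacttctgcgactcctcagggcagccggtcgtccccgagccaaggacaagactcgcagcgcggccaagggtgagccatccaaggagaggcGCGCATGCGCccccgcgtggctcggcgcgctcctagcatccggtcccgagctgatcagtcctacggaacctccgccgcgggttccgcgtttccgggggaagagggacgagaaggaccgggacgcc
The capitals mark the Sp1 motif GGGGCGGG in Mrps6, whose first base is at position -115 from the start. In Mrps22 they mark the Sp1 motif at -148 and the GABPA motif CCGGAAGT at -11. In Mrps18c the E-box CACGTG at -163 is followed directly by a GABPA match on the other strand at -157. In Mrpl32 and Mrpl39 they mark the palindromic NRF1 motif, at -87 and -125.

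No member's window held the ERR element TNAAGGTCA (N is any base), which 1.43% of the 27025 promoters of the table and 0.812% of the 5664 promoters of tested genes hold. The NRF1 motif was found in 3 members (Mrpl32, Mrpl39 and Mrpl9), 4.62% of the 65, and in 1.07% of all these genes and 2.68% of the tested ones. GABPA motifs were in 11 members (16.9%), against 4.31% and 11%, and the YY1 motif AAGATGGCG was in 7 (10.8%), against 1.64% and 4.34%. E-boxes were in 5 members (7.69%), against 8.09% and 12.9%, and Sp1 motifs in 20 (30.8%), against 18.4% and 36.5%. None of the 6 motifs was found in 29 members. The 9 members not searched were Mrpl4, Mrpl13, Mrpl15, Mrpl19, Mrpl38, Mrpl54, Mrps28, Mrps34 and Mrps35. The matches describe letters in these windows only, and the shares were not tested.

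In knockout cells 63 members were higher after the same stimulation and 4 lower, against a background of 37.7% of all genes higher and 35.7% lower. The large subunit had 38 of 47 higher and 3 lower, with a median log2 difference of 0.78, and the small subunit 25 of 27 higher and 1 lower, with a median of 0.76. Here all 7 macrophage, 5 B cell, 5 erythroid and 7 neutrophil markers fell, and 6 of 9 T cell markers fell and 1 rose, the macrophage ones averaging 2.59 in stimulated knockout cells, against 9.41 in resting knockout cells, and the B cell ones 5.22, against 7.85. Their part in the result was not tested. Mrps6 had 10.12, 9.99 and 10.01 in stimulated knockout cells, against 7.09, 7.53 and 7.35 in resting knockout cells, 6.57-fold higher. Mrpl1 (3.74-fold), Mrps18b (3.39-fold), Mrps22 (3.11-fold), Mrpl55 (3.01-fold), the homologue of a bacterial protein that bridges the subunits, and Mrpl47 (2.98-fold) followed in order of size.

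Mrpl12 had 11.54, 11.62 and 11.69 in stimulated knockout cells, against 10.50, 10.26 and 10.39 in resting knockout cells, a difference of 1.24 beside 1.5 in wild-type cells. Mrps12 had 10.30, 10.36 and 10.39, against 9.43, 9.34 and 9.35, a difference of 0.98 beside 0.99. Both rose without overlap between arrays. Mrpl3 (1.07), Mrps18a (1.02), Mrps18c (0.43), Mrps30 (0.82) and Mrps36 (1.05) rose as well. The 4 members that fell were Mrps26 (-0.35), a mitochondrion-specific small subunit protein, Mrpl49 (-0.33), Mrpl24 (-0.22) and Mrpl57 (-0.16), a mitochondrion-specific large subunit protein. Each of the last 3 lost its call without 1 of several single arrays, array 1 of the stimulated knockout cells among them. Without that array 65 members rose and 1 fell, beside 37.1% and 34.4% of all genes.

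At rest, knockout and wild-type cells differed in 4 members by limma's adjusted p under 0.05, 2 higher and 2 lower, against 6.74% and 12.3% of all genes tested. Median log2 differences were 0.04 for the large and 0.00 for the small subunit, beside -0.11 over all genes. Mrps5, whose bacterial homologue acts in decoding, had 7.62, 7.70 and 7.78 in resting knockout cells, against 8.06, 8.17 and 8.12 in resting wild-type cells, a difference of -0.42 ± 0.10 (SE, limma adjusted p = 0.0145). The arrays do not overlap, but a second probe set of Mrps5 gave 0.37. Mrpl17, a homologue of a bacterial large subunit protein, had 10.07, 10.05 and 10.03 in resting knockout cells, against 9.76, 9.80 and 9.91 in resting wild-type cells, and was 1.17-fold higher (limma adjusted p = 0.0321). Mrpl57 was 1.15-fold higher and Mrpl24 1.23-fold lower in knockout cells. Mrpl12 (0.04), Mrps12 (0.01), Mrpl3 (-0.02), Mrps18a (0.01), Mrps18b (0.03), Mrps18c (0.18), Mrps30 (0.10) and Mrps36 (0.22) did not pass. Mrps5 lost its call without array 2 of the resting wild-type cells (limma adjusted p = 0.0514), and the other 3 without any of 4 or 5 single arrays. A fit on these 6 arrays alone called no member and 2.56% of all genes, and at an unadjusted p under 0.05 there were 13 members, beside 2429 of all 6873 genes. The number of calls ranged from 0 to 6 when single arrays were left out (0 without array 2 and 2 without array 3 of the resting wild-type cells), and the erythroid and neutrophil markers given above moved with this comparison. The 5 B cell markers averaged 7.85 in resting knockout cells, against 8.92 in resting wild-type cells, with 3 called lower and a median difference of -1.03. The 7 macrophage markers averaged 9.41, against 8.71, with none called and all differences positive. The part of these cells in the result was not tested.

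After stimulation no member differed between knockout and wild-type cells by limma's adjusted p under 0.05, where 1.59% of all genes passed as higher and 0.597% as lower. At an unadjusted p under 0.05 there were 11, all lower in knockout cells, beside 1065 of all 6873 genes, 641 of them lower. A fit with array weights called 13 members lower, Mrpl12 among them, and 23.8% of all genes in either direction, and the replicate number as a block called 0 members. Of the 74 differences 63 were negative (85.1%, beside 66.1% of all genes tested), with medians of -0.11 for the large and -0.14 for the small subunit, beside -0.06 over all genes. In 29 members all 3 knockout arrays lay below all 3 wild-type arrays, as did 23.0% of all genes. Without array 1 of the stimulated knockout cells the medians were -0.05 and -0.08.

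The member nearest the threshold was Mrps2, a homologue of a bacterial small subunit protein, with 8.82, 9.16 and 9.26 in stimulated knockout cells, against 9.47, 9.41 and 9.37 in stimulated wild-type cells. Its difference was -0.34 ± 0.09 (SE), with a 95% interval from -0.54 to -0.14 and a limma adjusted p of 0.0862. The 3 arrays of each genotype were apart, with array 1 of the knockout lowest. Without that array the difference of Mrps2 was -0.21 (limma adjusted p = 0.271), and without array 3 of the knockout it was -0.43 and passed (limma adjusted p = 0.0359). Mrpl12 had 11.54, 11.62 and 11.69 in stimulated knockout cells, against 11.87, 11.86 and 11.79 in stimulated wild-type cells, a difference of -0.22 (95% interval -0.36 to -0.08, limma adjusted p = 0.111). Mrps12 had a difference of 0.00 with an interval from -0.15 to 0.15. Mrpl3 (-0.13), Mrps18a (-0.18), Mrps18b (-0.09), Mrps18c (-0.12), Mrps30 (-0.05) and Mrps36 (-0.17) did not pass either. The 95% intervals of all members together ran from -0.70 to 0.37 on the log2 scale, so a knockout level further below the wild type than 0.7 log2 units lay outside every interval.

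Whether the response to stimulation itself depended on the genotype was tested as an interaction, knockout response minus wild-type response. No member passed in it by limma's adjusted p under 0.05, with a background of 0.48% higher and 0.422% lower. At an unadjusted p under 0.05 there were 10, all negative, beside 1200 of all 6873 genes, 546 of them negative. Array weights called 4 members, all negative and Mrpl12 among them, and 17.8% of all genes, while the replicate block called 0 members. The median was -0.15 for the large and -0.13 for the small subunit, beside 0.05 over all genes. Mrpl13, a homologue of a bacterial large subunit protein, had the smallest adjusted p (-0.37, limma adjusted p = 0.159), and Mrpl12 had -0.27 (limma adjusted p = 0.165). Mrps36 had -0.39 (limma adjusted p = 0.268). Mrps12 (-0.01), Mrpl3 (-0.11), Mrps18a (-0.19), Mrps18b (-0.12), Mrps18c (-0.30) and Mrps30 (-0.15) did not pass either. Without array 1 of the stimulated knockout cells the medians were -0.10 and -0.08.

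**Figure D3:**
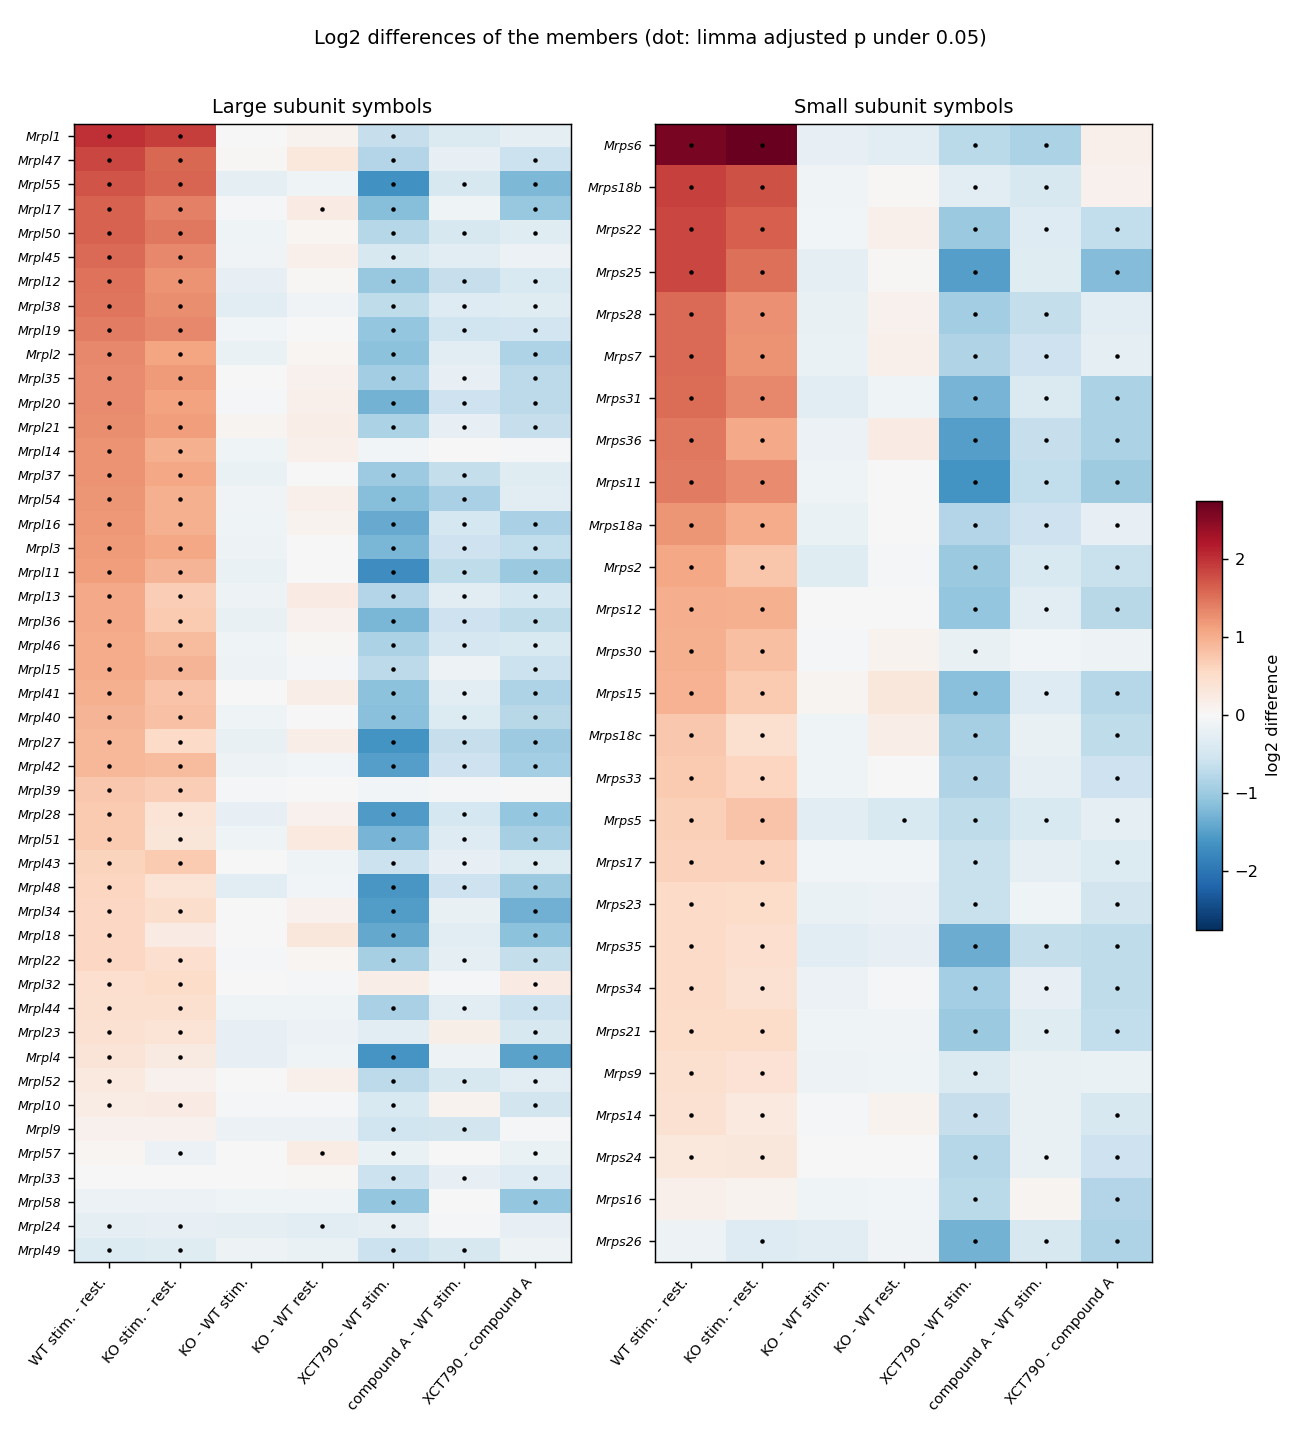
Log2 difference of each of the 74 genes (rows, ordered by the wild-type response to stimulation) in 7 comparisons (columns), in colour, with a dot where the limma adjusted p was under 0.05. The response to stimulation runs from -0.38 to 2.62 in wild-type cells and carries dots on 68 genes, the column of knockout minus wild-type cells after stimulation carries none, and the column of XCT790 minus stimulated wild-type cells is negative in 73 of 74 genes, with dots on 70.

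With the inhibitor XCT790 70 of the 74 members were lower than in stimulated wild-type cells and none higher, by limma's adjusted p under 0.05. Of all genes tested 36.9% fell and 29.1% rose. All 27 small subunit genes fell, with a median log2 difference of -0.91, and 43 of 47 large subunit genes, with a median of -0.96. In 71 members all 3 XCT790 arrays lay below all 3 stimulated arrays, as did 42.9% of all genes. At an unadjusted p under 0.05 there were 71, all lower. At least 66.0% of all genes passed it too, the share past the adjusted test in either direction. With array weights 73 members passed as lower and 1 as higher, beside 44.9% and 36.8% of all genes. This comparison crosses the dap split, and the β-actin difference given above, but not the Gapdh difference, was highest on XCT790 arrays. Their part in the result was not tested. The T cell markers averaged 11.45 with XCT790, against 11.93 in stimulated wild-type cells, and 5 of 9 fell and 1 rose.

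Mrpl11, at the base of the stalk where translation factors bind, fell most. It had 8.21, 8.70 and 8.45 with XCT790, against 10.09, 10.19 and 10.22 in stimulated wild-type cells, a difference of -1.71 ± 0.11 (SE), 3.28-fold lower (limma adjusted p = 1.08e-08). Mrpl4, a homologue of a bacterial protein lining the exit tunnel, had 8.26, 8.30 and 8.11, against 9.97, 9.93 and 9.66, and was 3.1-fold lower (limma adjusted p = 1.63e-09). The XCT790 arrays of both genes stood more than 1 log2 unit below every stimulated array. Mrpl27, whose bacterial homologue reaches the peptidyl transferase centre, had 8.82, 9.33 and 9.06 with XCT790, against 10.71, 10.75 and 10.68. Mrpl55 (3.18-fold lower), Mrpl48 (3.0-fold lower), a mitochondrion-specific protein, and Mrps11 (3.12-fold lower), a homologue of a bacterial protein of the platform, completed the 6 largest falls.

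Mrpl12 had 10.77, 10.79 and 10.81 with XCT790, against 11.87, 11.86 and 11.79 in stimulated wild-type cells, and Mrps12 had 9.23, 9.40 and 9.24, against 10.31, 10.30 and 10.44. They were 2.07-fold lower and 2.08-fold lower. Mrpl3 (2.39-fold), Mrps18a (1.74-fold), Mrps18c (1.88-fold) and Mrps36 (2.86-fold) were lower too. Mrps18b and Mrps30 had smaller differences, of -0.32 and -0.20 (limma adjusted p = 0.00751 and 0.0216), and the call of Mrps30 was lost without array 3 of the stimulated cells (limma adjusted p = 0.0587).

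The 4 members that did not pass, named after their values were seen, were all of the large subunit. Mrpl39, a mitochondrion-specific protein, had 11.74, 11.85 and 11.69 with XCT790, against 11.83, 11.79 and 11.88 in stimulated and 11.10, 11.07 and 11.11 in resting wild-type cells. A second probe set of Mrpl39, above log2 4 on all arrays, had a difference of -0.44 from stimulated cells, against -0.07 for the chosen one. Mrpl14, at the interface between the subunits, had 8.23, 8.69 and 8.32 with XCT790, against 8.53, 8.48 and 8.45 in stimulated and 7.11, 7.23 and 7.40 in resting cells. Mrpl32, whose yeast counterpart is matured by a protease of the inner membrane, had 11.57, 11.25 and 11.31, against 11.29, 11.11 and 11.18 in stimulated and 10.57, 10.82 and 10.79 in resting cells. By the chosen probe sets, in all 3 genes the XCT790 arrays lay among or beside the stimulated arrays and above every resting array. Mrpl23, at the exit tunnel, had a difference of -0.28 (limma adjusted p = 0.0625). Of the 3 members with the NRF1 motif, Mrpl9, a homologue of a bacterial large subunit protein, was lower with XCT790 (-0.54).

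**Figure D4:**
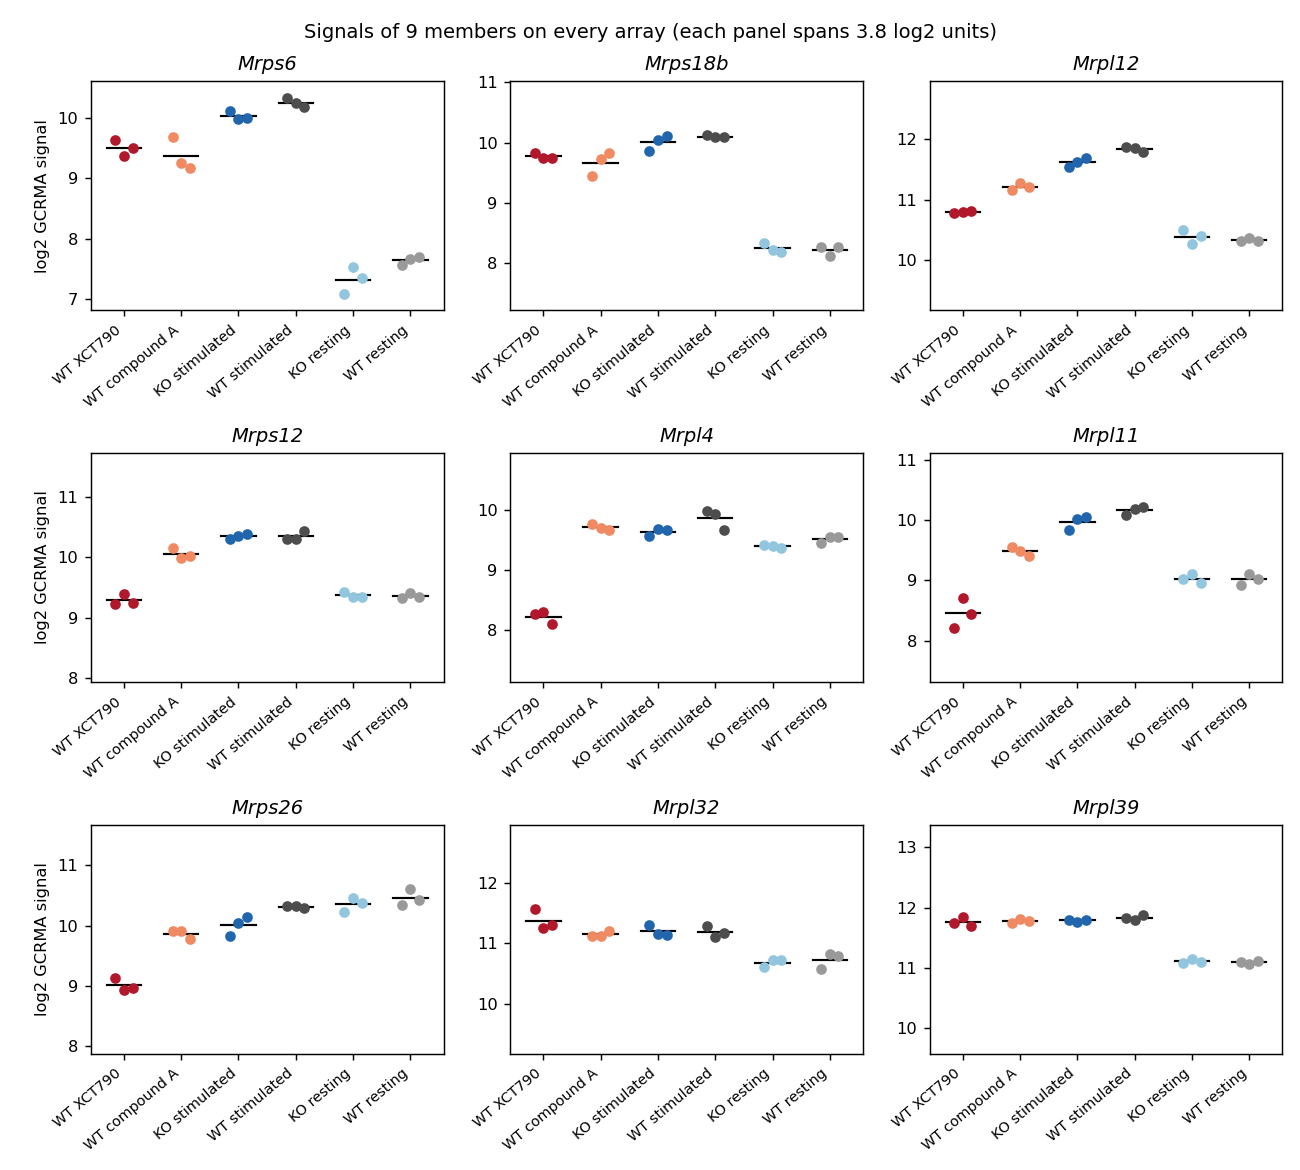
Log2 signal of 9 members (panels, each spanning 3.8 log2 units) on each array of the 6 groups; points are arrays and the line is the mean of 3. Mrps6 stays between 9.37 and 9.64 with XCT790, above its resting arrays, the XCT790 arrays of Mrpl4 and Mrps26 lie below all others, and those of Mrpl32 and of the chosen probe set of Mrpl39 lie with the stimulated arrays.

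With compound A at the same dose 48 members were lower than in stimulated wild-type cells and none higher, by limma's adjusted p under 0.05. Of all genes 18.7% fell and 14.5% rose. The falls covered 30 of 47 large and 18 of 27 small subunit genes, with median log2 differences of -0.31 and -0.35. In 59 members all 3 compound A arrays lay below all 3 stimulated arrays, as did 33.3% of all genes. At an unadjusted p under 0.05 there were 56, all lower. At least 33.2% of all genes passed it too, the share past the adjusted test in either direction. Without array 3 of compound A 30 members passed, beside 22.9% of all genes. Mrpl54, a mitochondrion-specific protein, had 8.60, 8.40 and 8.25 with compound A, against 9.28, 9.36 and 9.31 in stimulated cells, 1.86-fold lower (limma adjusted p = 0.000112). Mrps6 had 9.69, 9.26 and 9.17, against 10.34, 10.25 and 10.18, 1.85-fold lower (limma adjusted p = 0.000219). These were the largest falls, and all arrays of compound A lay below all stimulated arrays in both.

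Mrpl11 (-0.69), Mrps11 (-0.67), Mrps28 (-0.66), the counterpart of a bacterial small subunit protein, and Mrps35 (-0.66), a mitochondrion-specific protein, came next. Mrpl12 had 11.16, 11.28 and 11.20 with compound A, against 11.87, 11.86 and 11.79 in stimulated cells, and was 1.54-fold lower (limma adjusted p = 1.58e-05). Mrps12 (-0.29), Mrpl3 (-0.57), Mrps18a (-0.57), Mrps18b (-0.43) and Mrps36 (-0.63) fell. Mrps18c (-0.21, limma adjusted p = 0.0912) and Mrps30 (-0.07, limma adjusted p = 0.471) did not pass.

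Among the genes that act with the mitochondrial ribosome, 8 of the 10 translation factors, RNA-binding and accessory proteins fell with XCT790 and 3 of 10 with compound A, relative to stimulated wild-type cells. Of all genes tested 36.9% fell and 29.1% rose with XCT790, and 18.7% fell and 14.5% rose with compound A. These shares stand beside every list in this paragraph. Tufm had differences of -1.40 and -0.54, Gfm1 of -1.06 and -0.54, with XCT790 and compound A in that order. Among the genes listed for assembly, Ddx18 included, 11 of 20 fell and 5 rose with XCT790, and 8 fell with compound A. The largest changes with XCT790 went opposite ways, in the GTPase gene Mtg1 (-1.38) and in Mrm1 (1.39), which methylates the large ribosomal RNA. Oxidative phosphorylation subunits fell in 68 of 73 with XCT790, with a median of -0.68, and in 20 of 73 with compound A, with a median of -0.13. Of 46 cytosolic ribosomal protein genes 9 fell and 5 rose with XCT790, with a median of 0.03. Of 14 genes listed for mitochondrial transcription and DNA maintenance and their nuclear regulators, which include Polrmt, Polg, Ssbp1, Nrf1, Gabpa, Myc and Yy1, 7 rose and 5 fell with XCT790, with a median of 0.14, and 2 rose and 3 fell with compound A, with a median of -0.08.

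XCT790 and compound A were tested directly against each other at 20 µM and 12 h, as the 1 pair of inhibitors in the study, on arrays that lie on the same side of the dap split. XCT790 arrays were lower in 59 members and higher in 1 by limma's adjusted p under 0.05, where 27.8% of all genes were lower and 24.8% higher. The large subunit had 37 of 47 lower and 1 higher, with a median log2 difference of -0.59, and the small subunit 22 of 27 lower, with a median of -0.61. In 63 members every XCT790 array lay below every compound A array, as did 34.1% of all genes. Of the T cell markers 7 of 9 were lower with XCT790 as well, at 11.45 against 12.10 with compound A on average.

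Mrpl4 differed most, with 8.26, 8.30 and 8.11 with XCT790 against 9.76, 9.70 and 9.66 with compound A, a difference of -1.48 ± 0.08 (SE), 2.79-fold lower (limma adjusted p = 6.42e-09). Mrpl34, a homologue of a bacterial large subunit protein, had 8.28, 9.08 and 8.66 with XCT790, against 10.12, 9.91 and 9.97 with compound A. Mrpl58, a release factor that frees stalled peptides, had 9.53, 10.10 and 9.82 with XCT790, against 10.79, 10.91 and 10.97 with compound A, and was 2.11-fold lower. No array of either inhibitor overlapped in these 3 genes. Mrpl55 (2.35-fold), Mrps25 (2.27-fold) and Mrpl18 (2.18-fold), whose bacterial homologue binds the smallest ribosomal RNA, were the others of the 6 largest.

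Mrpl12 (-0.42), Mrps12 (-0.77), Mrpl3 (-0.68), Mrps18a (-0.23), Mrps18c (-0.70) and Mrps36 (-0.88) were lower with XCT790 than with compound A. The call of Mrps18a was lost without array 1 of XCT790 or array 3 of compound A (limma adjusted p = 0.0505 and 0.0785). Mrps18b had 0.11 with a 95% interval from -0.09 to 0.31, and Mrps30 had -0.13 with an interval from -0.28 to 0.02. For Mrps6 the difference was 0.13 (limma adjusted p = 0.427). The 1 member that was higher with XCT790 was Mrpl32, with 11.57, 11.25 and 11.31 against 11.12, 11.12 and 11.21 with compound A (limma adjusted p = 0.0496). This call was lost without array 1 or 3 of XCT790 or any 1 array of compound A (limma adjusted p up to 0.238) and with the replicate number as a block (limma adjusted p = 0.0623).

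**Figure D5:**
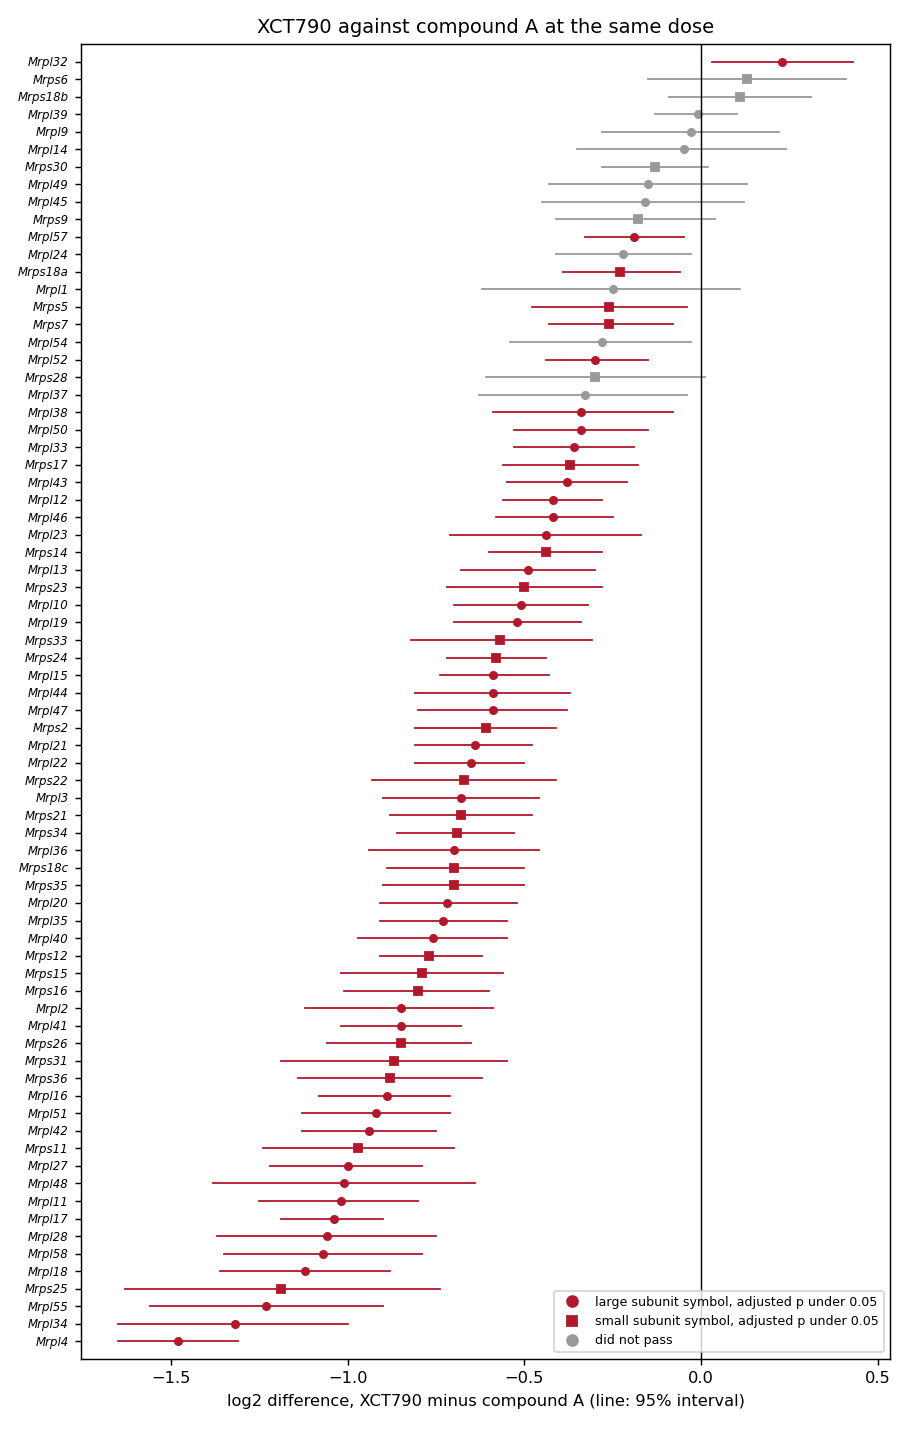
Log2 difference XCT790 minus compound A (horizontal axis) of the 74 members (rows, in order of size) with its 95% interval; circles are large and squares small subunit genes, red where the limma adjusted p was under 0.05. The differences run from -1.48 in Mrpl4 to 0.23 in Mrpl32, and 59 red points lie below 0.

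Against resting wild-type cells, XCT790 arrays had 22 members higher and 24 lower by limma's adjusted p under 0.05, beside 33.6% and 38.3% of all genes tested. Markers moved with this comparison as well: all 7 macrophage markers (median difference -6.66), all 5 B cell markers (-3.45), 7 of 9 T cell, 3 of 5 erythroid and 3 of 7 neutrophil markers were lower and 1 T cell marker was higher. The T cell markers averaged 11.45 with XCT790, against 12.68 in resting cells, and the β-actin difference was 0.69 to 0.80, against 0.44 to 0.52. The Gapdh difference was -0.02 to 0.04, against 0.05 to 0.08. The part of the markers and of RNA integrity in the result was not tested. The median of the members was -0.08 for the large and -0.07 for the small subunit, and 0.02 and 0.03 once arrays were shifted to a common median. The members' quartiles were -0.47 and 0.33, beside -0.73 and 0.50 over all genes, with a median over all genes of -0.05. Mrps6 had 9.64, 9.37 and 9.51 with XCT790, against 7.56, 7.66 and 7.70 in resting cells, 3.65-fold higher, and Mrps18b had 9.82, 9.75 and 9.75, against 8.26, 8.12 and 8.26, 2.95-fold higher. Mrpl1 (1.36), Mrpl14 (1.16), Mrpl45 (1.10), which ties the ribosome to the inner membrane, and Mrpl47 (1.02) were higher as well. Mrps26 had 9.13, 8.94 and 8.97 with XCT790, against 10.34, 10.61 and 10.43 in resting cells, 2.72-fold lower, and Mrpl4 had 8.26, 8.30 and 8.11, against 9.44, 9.55 and 9.55, 2.44-fold lower. Mrpl58 (-1.23), Mrpl48 (-1.0), Mrpl49 (-0.96) and Mrpl34 (-0.95) were lower than at rest too. A second probe set of Mrpl49, above log2 4 on all arrays, gave 0.15, so its direction depends on the probe set. Mrpl12 (0.45), Mrps18a (0.42) and Mrps30 (0.77) were higher than at rest, while Mrps12 (-0.07), Mrpl3 (-0.08), Mrps18c (-0.17) and Mrps36 (-0.08) did not pass. The other members that passed as higher were Mrpl13, Mrpl15, Mrpl17, Mrpl19, Mrpl21, Mrpl32, Mrpl35, Mrpl38, Mrpl39, Mrpl50, Mrps7, Mrps22 and Mrps28, with differences from 0.25 in Mrpl13 to 0.84 in Mrpl50. The call of Mrpl13 was lost without array 1 or 3 of the resting cells or array 2 or 3 of XCT790 (limma adjusted p up to 0.107). Without array 2 of XCT790 Mrps18c was lower than at rest (-0.29, limma adjusted p = 0.00318).

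With compound A, 57 members were above resting wild-type cells and 6 below, beside 32.6% and 37.1% of all genes tested by limma's adjusted p under 0.05. The large subunit had a median of 0.55 and the small of 0.61. In the same comparison all 7 macrophage markers (median difference -6.65), all 5 B cell markers (-3.30), 6 of 9 T cell, 3 of 5 erythroid and 3 of 7 neutrophil markers were lower and 1 T cell marker was higher. Their part in the result was not tested. Mrps6 (3.33-fold), Mrpl47 (3.06-fold), Mrpl1 (3.05-fold), Mrpl17 (2.84-fold), Mrps25 (2.83-fold) and Mrps22 (2.77-fold) were highest over rest. Mrpl12 (0.88), Mrps12 (0.70), Mrpl3 (0.60), Mrps18a (0.65), Mrps18b (1.45), Mrps18c (0.52), Mrps30 (0.90) and Mrps36 (0.80) were above rest as well. The 6 below were Mrpl49 (-0.81), Mrps26 (-0.59), Mrpl9 (-0.40), Mrpl24 (-0.29), Mrpl33 (-0.22) and Mrpl52 (-0.18), the last 2 a homologue of a bacterial large subunit protein and a mitochondrion-specific one. The calls of Mrpl33 and Mrpl52 were lost without array 2 or 3 of compound A or array 2 of the resting cells, and that of Mrpl52 also without array 3 of the resting cells. For Mrpl52, 2 other probe sets above log2 4 on all arrays gave -0.01 and 0.08. By the mean of its probe sets Mrpl49 had a difference of 0.07. A second probe set of Mrpl9, dimmer but above log2 4 on all arrays, gave 0.13, and the mean of both gave -0.14 (limma adjusted p = 0.36).

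Stimulated knockout cells are on the same side of the dap split as the inhibitor arrays, which permits a comparison that does not cross it. Genotype and inhibitor differ together in it and cannot be told apart. The β-actin difference was 0.69 to 0.80 with XCT790, against 0.41 to 0.47 in stimulated knockout cells, and the Gapdh difference -0.02 to 0.04, against -0.04 to 0.01. The T cell markers averaged 11.45, against 11.87. The part of RNA integrity and of the markers in the result was not tested. XCT790 arrays were lower than stimulated knockout arrays in 67 members and higher in 0 by limma's adjusted p under 0.05, against 33.9% and 31.3% of all genes tested, with medians of -0.89 for the large and -0.76 for the small subunit. At an unadjusted p under 0.05 there were 69, all lower. At least 65.2% of all genes passed it too, the share past the adjusted test in either direction. Without array 1 of the knockout 68 members were lower and 0 higher by adjusted p, beside 33.1% and 29.1% of all genes. Mrpl34 had 8.28, 9.08 and 8.66 with XCT790, against 10.14, 10.20 and 10.29 in stimulated knockout cells, 2.9-fold lower, and Mrpl11 had 8.21, 8.70 and 8.45, against 9.84, 10.02 and 10.05, 2.87-fold lower. No array of the groups overlapped in either. Mrps11 (-1.52), Mrpl27 (-1.43), Mrpl55 (-1.41) and Mrpl4 (-1.40) followed, and Mrpl12 (-0.83), Mrps12 (-1.06), Mrpl3 (-1.13), Mrps18a (-0.62), Mrps18c (-0.79) and Mrps36 (-1.35) were also lower. The call of Mrps18b (-0.23, limma adjusted p = 0.0449) was lost without any 1 array of either group but array 1 of the knockout, and with the replicate number as a block (limma adjusted p = 0.0523), and Mrps30 did not pass (limma adjusted p = 0.0732).

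Compound A arrays were lower than stimulated knockout arrays in 30 members and higher in 1, against 12.0% and 14.1% of all genes tested, with medians of -0.25 for the large and -0.17 for the small subunit. Genotype and compound A cannot be told apart here either. Without array 1 of the knockout 28 members were lower and 0 higher, beside 10.1% and 9.98% of all genes. With array weights on all arrays 60 members passed, beside 57.6% of all genes. Mrpl54 had 8.60, 8.40 and 8.25 with compound A, against 8.99, 9.34 and 9.34 in stimulated knockout cells, 1.75-fold lower. Mrps6 (-0.66), Mrps11 (-0.55), Mrpl20 (-0.53), a homologue of a bacterial large subunit protein, Mrpl11 (-0.49) and Mrpl19 (-0.48), a homologue of one at the subunit interface, were next. Mrpl12 (-0.40), Mrps12 (-0.29), Mrpl3 (-0.44), Mrps18a (-0.39), Mrps18b (-0.34) and Mrps36 (-0.46) were lower too, though Mrps18b lost its call without array 1 of compound A or array 2 or 3 of the knockout and Mrps36 without array 3 of compound A. By the mean of its 3 probe sets Mrpl3 had -0.18 and did not pass (limma adjusted p = 0.228), and the dimmest of them, above log2 4 on 3 arrays, gave 0.45. Mrps18c (-0.09) and Mrps30 (-0.02) did not pass. The member that was higher was Mrpl23 (0.39, limma adjusted p = 0.0355), whose arrays overlapped between the groups and whose call was lost without array 2 or 3 of compound A or array 1 of the knockout. The comparisons with stimulated cells, with resting cells and with the knockout share their inhibitor arrays and are not independent of each other.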

How the data were processed

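RNA of CD4+ T cells was measured on 18 Affymetrix Mouse Genome 430A 2.0 arrays, and the labels gave the groups. The authors deposited log2 signals, 1 per probe set and array, from GCRMA, per the submitters' processing notes; its version is not given in the sources used here. The sorted values of all arrays are identical (1.83 to 15.4), and 11025 probe sets (48.6%) reach log2 4 on each. Arrays give no read depth, and their number, 3 per group, limits the precision.

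Of 22690 probe sets, 20380 name exactly 1 gene and were kept. Left out were 3 that name Mrpl30, Mrpl53 or Mrps34 together with a second gene, so that Mrpl30 and Mrpl53 are not among the members. Of the 74 members, 41 had 1 probe set and 33 several. All 74 symbols match RefSeq. A limma fit (limma 3.58.1, R 4.3.3) took the 6873 genes that reached log2 4 on at least 3 arrays, with a mean for each group over all 18 arrays and no block. It had 12 residual degrees of freedom and 2.22 from the prior. Tests were two-sided, with Benjamini-Hochberg adjustment over all genes of a comparison. Intervals are 95% intervals of that fit. Its p-values set a difference against the spread between arrays within groups, pooled over all 6 groups and moderated by the prior. Folds are powers of the log2 difference. The fit was tested on simulated data first. Python 3.11.15 with matplotlib 3.10.9 drew the figures.

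The members, the gene lists and the tests were chosen with earlier results of these data known. Named in each comparison are the members that passed with the 6 largest rises and the 6 largest falls, those that passed against the majority, Mrpl12, Mrps12, Mrpl3, Mrps18a, Mrps18b, Mrps18c, Mrps30 and Mrps36, and a few genes of the other lists; members named outside this rule were chosen after their values were seen. Pairing by array number was checked by correlating equally numbered arrays' deviations from the mean of their group. Every correlation was above 0.1 for genotype at rest (0.645, 0.406 and 0.254), genotype after stimulation (0.442, 0.384 and 0.148), stimulation in knockout cells (0.336, 0.266 and 0.238) and both inhibitors against stimulated cells, but not for stimulation in wild-type cells (0.132, -0.011 and 0.023) or between the inhibitors (0.163, 0.052 and 0.223). No shared day or animal is given in the labels. The alternatives tried were: no filter on low signals; a stricter floor, log2 6; a common median for all arrays; averaging a gene's probe sets; the replicate number as a block; fitting the compared groups alone; a trended, robust prior; array weights; subunits by structure; and leaving out each array.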

Additional observations from a re-analysis of the deposited data

How the results depend on the processing

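The counts of members passing kept within 1.5 times under every alternative for stimulated against resting cells of both genotypes, XCT790 against stimulated wild-type cells, against compound A, against resting cells and against stimulated knockout cells, and compound A against resting cells. Leaving out 1 array in turn gave 65 to 68, 62 to 67, 68 to 72, 56 to 61, 45 to 48, 63 to 68 and 57 to 60 in that order. Of all genes, 71.5% to 72.1%, 68.9% to 73.2%, 61.2% to 64.2%, 46.3% to 52.4%, 68.1% to 70.1%, 60.1% to 63.3% and 64.9% to 66.1% passed in those fits. Genotype at rest, 4 members, depended on the processing. By the mean of all probe sets 1 passed, beside 20.2% of all genes, and on the compared groups alone 0, beside 2.56%. Array weights gave 12, beside 34.6%, and leaving out 1 array 0 to 6, beside 8.9% to 21.6%. After stimulation, where 0 passed, array weights gave 13, beside 23.8% of all genes. Leaving out 1 array gave 0 to 1 (1 without array 3 of the knockout), beside 0.96% to 1.98%. The interaction, also 0, gave 4 with array weights, beside 17.8%, and 0 to 0 with 1 array left out, beside 0.32% to 2.05%. Compound A against stimulated wild-type cells, 48 members, gave 30 to 43 with 1 array left out, beside 22.9% to 31.0% of all genes. Against stimulated knockout cells, 31 members, it gave 21 to 31, beside 16.0% to 25.2%, and with array weights 60, beside 57.6%. The causes were not tested.

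With the replicate number as a block 68, 68, 5, 0 and 0 members passed for stimulation in wild-type and in knockout cells, genotype at rest, genotype after stimulation and the interaction, and 71, 46, 61, 49, 63, 67 and 32 for XCT790 and compound A against stimulated cells, against each other, against resting cells and against stimulated knockout cells; beyond the calls of Mrpl32 and Mrps18b given above, no named member's call changed. Directions turned by the mean of all probe sets for Mrpl49 (0.32 after stimulation in wild-type, 0.27 in knockout cells and 0.07 for compound A against rest), for Mrpl57 between genotypes at rest (-0.01) and for Mrpl52 with compound A against rest (0.0). That mean also takes probe sets that never reach log2 4, and the second probe set of Mrpl57 is one. The direction of Mrpl52 also differs among probe sets above log2 4 on all arrays. The median of XCT790 against resting cells, near 0, turned for the large subunit to 0.02 with arrays shifted to a common median, 0.0 by the mean of all probe sets and by structure, and 0.01 without replicate 1 of XCT790, and for the small subunit to 0.03 and 0.01 with the common median and without that replicate; over all arrays left out in turn the medians ran from -0.15 to 0.01 and from -0.12 to 0.01. Of the named members' other values, 2514 kept the call, 95 lost and 10 gained it. A turned direction was counted only where the gene passed in either fit, so values that never passed may have changed sign. Of 21 members with several probe sets above log2 4, 19 had the same sign in all for stimulation in wild-type cells, 20 for XCT790 against stimulated cells and 11 for genotype at rest.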
